A study of Rattus norvegicus with 9 samples.

Results

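The 10 genes described here, whose RNA was higher in both groups of rats prenatally exposed to valproic acid (VPA) than in control rats, were measured in the dorsal hippocampus. They are Ankrd34b, Slc35g2, Adgra1, Tmem255a, Rab9b, Tmem91, Vwc2l, Gpr165, Lypd1 and Galnt13, and each has 1 probe set among the 30429 of the array. They were chosen by their measured log2 levels, because all 6 VPA arrays were above all 3 control arrays. Of 18166 genes with a symbol of their own, 508 met this condition, which is 2.80% (2.76% of all probe sets and 3.91% of genes with a log2 level over 6.6 in at least 1 group), so the members are 10 of 508 and the rule does not say why these were taken. The values of both VPA groups against control chose the members and are therefore given as a description, without a test.

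RNA was taken from male Sprague-Dawley rats at 8 weeks of age, with 1 array per rat and 3 rats per group. OXT-treated VPA rats came from dams that received VPA by mouth once in mid-gestation, and were themselves given oxytocin (OXT) through the nose each day from weaning until the day before RNA was taken. Vehicle-treated VPA rats had the same prenatal exposure and received vehicle in place of OXT, while control rats came from dams given water and received vehicle. There was no control group with OXT, and the pups of each group came from only a few dams, whose litters are not matched to the arrays, so littermates may share part of a difference. Values are log2 expression levels that the authors normalized, and levels of different probe sets are not compared with each other. In bulk tissue, more cells of a type and more RNA per cell cannot be told apart. Of 9 markers of hippocampal principal cells 6 were measured, and their mean was 8.00 to 8.26 in OXT-treated VPA rats and 8.10 to 8.22 in vehicle-treated VPA rats, against 8.24 to 8.31 in control. Neurod6, a transcription factor gene of these cells, was at 9.47, 9.82 and 9.89 in OXT-treated VPA rats and 9.67, 9.72 and 9.72 in vehicle-treated VPA rats, against 10.26, 10.28 and 10.23 in control, so the VPA arrays were below all controls (differences of -0.53 and -0.55, unadjusted p = 0.00104 and 0.000781, adjusted p = 0.185 and 0.163 from limma). Zbtb20 differed by -0.27 with OXT, which passed at an unadjusted p under 0.05, and by -0.23 with vehicle, which did not. Its VPA arrays, at 9.73 or less, were also below all controls, at 9.77 or more. The share of all genes with every VPA array below control was not computed. Prox1, Bcl11b, C1ql2 and Spink8 did not pass in either group, with differences between -0.22 and 0.34. The part of these cells in the values below was not tested.

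VPA is an antiepileptic drug that inhibits histone deacetylases, enzymes that remove acetyl groups from histones and so make chromatin less open to transcription. Exposure of the embryo in mid-gestation falls in the period when the brain is patterned, and the exposed offspring serve as a rat model of autism spectrum disorder. The members share no single pathway. Adgra1, Gpr165 and Lypd1 encode proteins of the cell surface, Vwc2l encodes a secreted protein, Rab9b, Slc35g2 and Galnt13 belong to families that work in endosomes and the Golgi, and Tmem91, Tmem255a and Ankrd34b encode proteins whose roles are little known.

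Promoter sequences of 4 members are shown because the genes were chosen for 1 shared pattern and these windows span the range of motif content. RefSeq windows of the rat assembly GRCr8, which run from 250 bases before the annotated start to 50 after it, were held for 9 of the 10 members. Galnt13 had none, and Tmem91 had 8 windows from several starts. Capitals mark GC boxes, the letters GGGCGG or CCGCCC to which SP1 and related factors can bind, and the TATA box letters TATAAA.
Ankrd34b, GRCr8 chr2:25386202-25386501 (+ strand): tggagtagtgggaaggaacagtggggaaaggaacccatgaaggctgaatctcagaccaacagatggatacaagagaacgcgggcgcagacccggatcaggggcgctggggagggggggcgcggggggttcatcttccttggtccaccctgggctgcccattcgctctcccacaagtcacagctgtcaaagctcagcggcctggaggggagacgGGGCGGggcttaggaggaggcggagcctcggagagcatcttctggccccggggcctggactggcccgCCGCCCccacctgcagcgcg
Rab9b, GRCr8 chrX:105023823-105024122 (- strand): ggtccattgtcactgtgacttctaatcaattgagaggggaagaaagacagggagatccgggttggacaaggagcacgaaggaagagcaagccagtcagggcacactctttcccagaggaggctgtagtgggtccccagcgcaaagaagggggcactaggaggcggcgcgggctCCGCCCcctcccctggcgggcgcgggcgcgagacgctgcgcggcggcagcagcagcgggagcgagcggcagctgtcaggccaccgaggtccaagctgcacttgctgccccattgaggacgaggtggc
Gpr165, GRCr8 chrX:65553133-65553432 (+ strand): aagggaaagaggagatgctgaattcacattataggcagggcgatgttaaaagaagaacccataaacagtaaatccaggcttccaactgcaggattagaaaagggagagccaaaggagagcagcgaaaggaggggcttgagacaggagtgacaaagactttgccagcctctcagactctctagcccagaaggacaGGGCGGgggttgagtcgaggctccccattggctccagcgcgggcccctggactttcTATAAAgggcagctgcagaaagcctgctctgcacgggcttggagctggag
Adgra1, GRCr8 chr1:204058968-204059267 (+ strand): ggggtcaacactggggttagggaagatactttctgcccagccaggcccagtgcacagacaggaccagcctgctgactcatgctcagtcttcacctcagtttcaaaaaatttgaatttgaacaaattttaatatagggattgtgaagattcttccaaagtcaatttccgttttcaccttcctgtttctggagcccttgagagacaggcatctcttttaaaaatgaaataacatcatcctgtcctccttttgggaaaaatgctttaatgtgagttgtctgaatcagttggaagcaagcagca
Ankrd34b held 2 GC boxes, which begin at bases 214 and 281 of the window, and Rab9b held 1 at base 174. Gpr165 held 1 GC box at base 195 and the only TATAAA among the members, which begins at base 251, the annotated start itself. Adgra1 held neither motif. Of the 8 members with a single window, 5 held a GC box on either strand, against 35.9% of the 24206 genes with a single window, and 1 held TATAAA, against 14.3%. Of the other motifs searched, the cyclic AMP response element TGACGTCA (both strands read alike) was in 0 of the 8 (1.91% of all windows), and the E-box CACGTG was in 1 of the 8, Lypd1 (6.74% of all). The number of CpG dinucleotides ran from 1 in Adgra1 to 37 in Slc35g2, with a median of 8 over all single windows, and 6 of the 8 members were above that median. Such matches describe the letters of the window only.

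Ankrd34b, which encodes a protein with ankyrin repeats, had the tightest groups of the 10 genes. Its log2 levels were 7.66, 7.73 and 7.81 in the OXT-treated VPA rats and 7.76, 7.83 and 7.65 in the vehicle-treated VPA rats, against 6.81, 6.89 and 6.90 in control. The 6 VPA arrays lay within a narrow band, and the lowest of them was 0.75 above the highest control. Mean differences from control were 0.87 (1.82-fold) with OXT and 0.88 (1.84-fold) with vehicle, and the pooled SD within groups was 0.07.

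Genes of endosomes and the Golgi differed in their spread, with a pooled SD within groups of 0.09 for Rab9b, 0.14 for Slc35g2 and 0.21 for Galnt13. Rab9b encodes a small GTPase close to Rab9a, which carries receptors from late endosomes back to the trans-Golgi network. Its levels were 10.29, 10.37 and 10.19 in the OXT-treated VPA rats and 10.15, 10.33 and 10.33 in the vehicle-treated VPA rats, against 9.68, 9.69 and 9.55 in control. Differences from control were 0.64 (1.56-fold) with OXT and 0.63 (1.55-fold) with vehicle, the smallest of the 10 genes with vehicle. Slc35g2 belongs to the SLC35 family of solute carriers, many members of which carry nucleotide sugars into the Golgi and endoplasmic reticulum. It had levels of 6.96, 7.20 and 6.78 in the OXT-treated VPA rats and 7.07, 7.06 and 7.18 in the vehicle-treated VPA rats, against 6.17, 6.01 and 6.16 in control. The OXT-treated values spread to both sides of the vehicle-treated ones, and the lowest of them, replicate 3, was 0.61 above the highest control. Differences from control were 0.87 (1.82-fold) with OXT and 0.99 (1.99-fold) with vehicle. Galnt13 encodes a polypeptide N-acetylgalactosaminyltransferase, which starts mucin-type O-glycans on proteins and in mouse is found mainly in neurons. Its levels were 8.48, 8.59 and 8.27 in the OXT-treated VPA rats and 8.11, 8.53 and 8.69 in the vehicle-treated VPA rats, against 7.59, 7.87 and 7.64 in control. The distance between its lowest VPA array, vehicle-treated replicate 1, and its highest control was 0.24, the narrowest of the 10 genes, while its mean differences were 0.75 (1.68-fold) with OXT and 0.74 (1.67-fold) with vehicle.

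Receptor and surface protein genes differed in how far their VPA arrays were spread. Adgra1, the gene of an adhesion G protein-coupled receptor found mainly in brain, had levels of 8.03, 8.02 and 8.20 in the OXT-treated VPA rats and 7.99, 8.00 and 8.06 in the vehicle-treated VPA rats, against 7.43, 7.41 and 7.24 in control. Both VPA groups were compact, with differences from control of 0.72 (1.65-fold) with OXT and 0.66 (1.58-fold) with vehicle. Lypd1, also called Lynx2, encodes a membrane-anchored protein of the Ly6 family that binds nicotinic acetylcholine receptors. It had levels of 7.19, 7.36 and 7.38 in the OXT-treated VPA rats and 7.16, 7.81 and 7.63 in the vehicle-treated VPA rats, against 6.71, 6.64 and 6.83 in control. Its mean was 7.31 ± 0.10 with OXT and 7.53 ± 0.34 with vehicle (SD, n = 3 each), and its vehicle-treated replicate 1 lay below all 3 OXT-treated values. From control the OXT-treated group differed by 0.58 (just under 1.5-fold) and the vehicle-treated group by 0.81 (1.75-fold).

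Gpr165, an orphan receptor gene of class A, had the largest mean differences and the largest pooled SD within groups, 0.61. Its levels were 8.25, 8.22 and 6.62 in the OXT-treated VPA rats and 7.91, 8.09 and 7.17 in the vehicle-treated VPA rats, against 5.97, 6.07 and 5.87 in control. Within both VPA groups replicate 3 was far below the others, and still 0.55 or more above the highest control. Mean differences of 1.73 (3.31-fold) with OXT and 1.75 (3.37-fold) with vehicle stand beside SDs of 0.93 with OXT and 0.49 with vehicle. Vwc2l encodes a secreted protein with von Willebrand factor type C domains, related to the mouse bone morphogenetic protein antagonist Vwc2. It had levels of 6.70, 6.59 and 7.44 in the OXT-treated VPA rats and 6.40, 6.67 and 7.51 in the vehicle-treated VPA rats, against 5.57, 5.28 and 5.45 in control. Here replicate 3 was the highest of each VPA group (SD 0.46 with OXT and 0.58 with vehicle), the opposite of Gpr165 on the same arrays, and the mean differences from control were 1.48 (2.78-fold) with OXT and 1.43 (2.69-fold) with vehicle. The labels do not say that replicate numbers pair the rats, so no pairing of the groups is read from this.

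The remaining genes encode membrane proteins. Tmem91, also called SynDIG3, belongs to the family of SynDIG1, a protein that associates with AMPA receptors at synapses. Its levels were 7.67, 7.69 and 7.29 in the OXT-treated VPA rats and 7.65, 7.54 and 7.28 in the vehicle-treated VPA rats, against 6.67, 6.54 and 6.43 in control. Replicate 3 was again the lowest of each VPA group, and the mean differences from control were 1.0 (2.0-fold) with OXT and 0.94 (1.92-fold) with vehicle. Tmem255a, a transmembrane protein gene of little known role, had levels of 8.76, 8.76 and 8.67 in the OXT-treated VPA rats and 8.59, 8.86 and 8.78 in the vehicle-treated VPA rats, against 8.08, 8.05 and 7.81 in control. All 6 VPA values lay at least 0.51 above the highest control, with mean differences of 0.75 (1.68-fold) with OXT and 0.76 (1.70-fold) with vehicle.

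**Figure D1:**
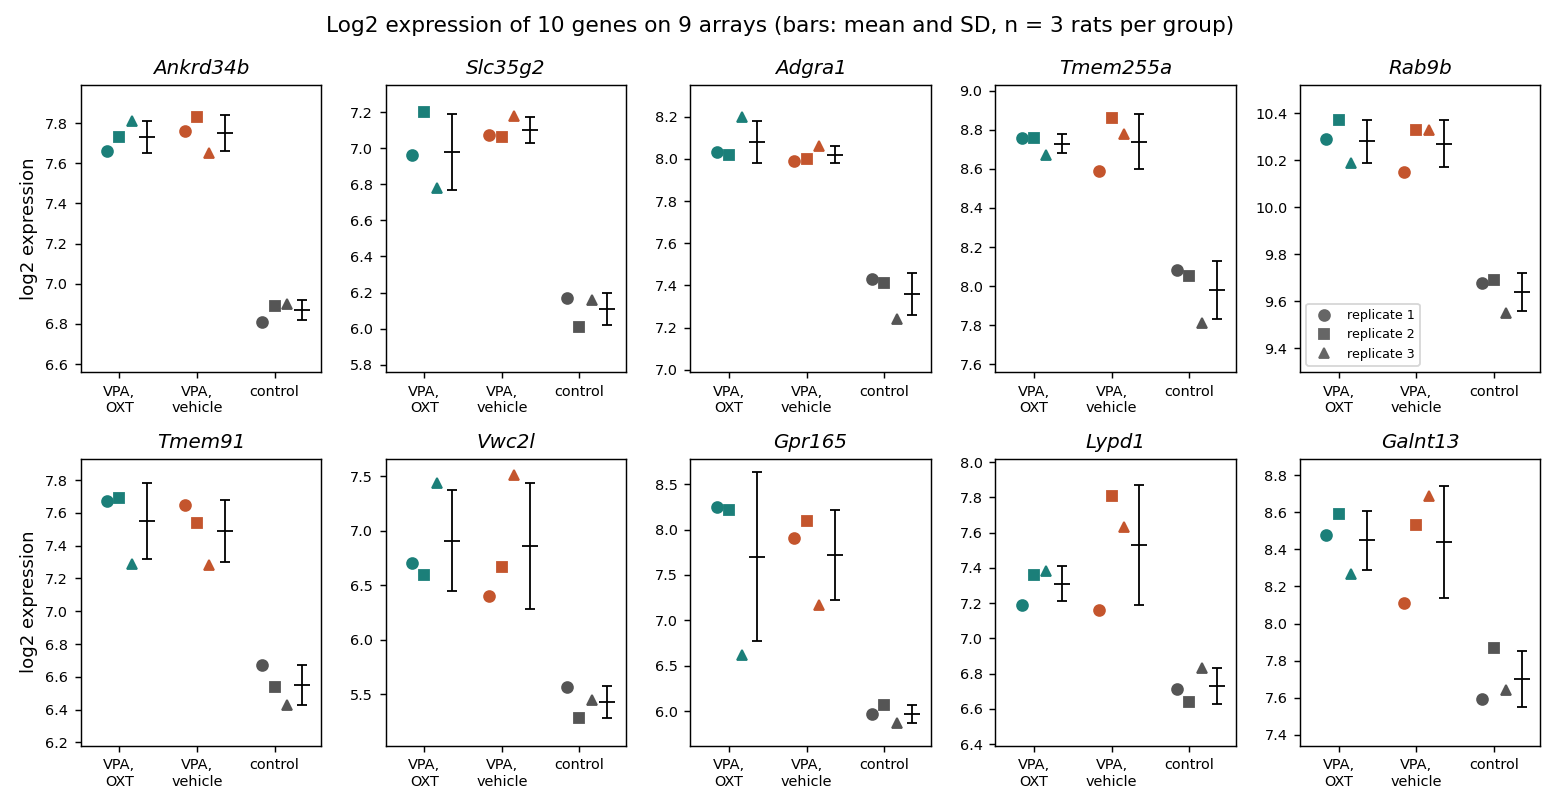
Log2 expression (y axis, a separate scale in each panel) of the 10 genes in the OXT-treated VPA, vehicle-treated VPA and control groups (x axis); each symbol is 1 rat, and bars show the mean and SD (n = 3). All VPA points lie above all control points, by 0.24 for Galnt13 to 0.83 for Vwc2l, and replicate 3 of both VPA groups stands apart for Gpr165 and Vwc2l.

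Across the 10 genes the median difference from control was 0.81 with OXT and 0.84 with vehicle, beside 0.01 and 0.01 over all probe sets. These medians follow from the choice of the genes. Not all members were equally steady. The pooled SD within groups was 0.07 for Ankrd34b, 0.09 for Adgra1 and for Rab9b, 0.44 for Vwc2l and 0.61 for Gpr165, against a median of 0.11 over genes with a level over 6.6, so Vwc2l and Gpr165 varied more within groups than most genes of such a level.

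The members were not simply the genes farthest from control. By the distance between the lowest VPA and the highest control array, Vwc2l ranked 3, Ankrd34b ranked 6 and Galnt13 ranked 67 of all genes, and 71 genes had a distance of 0.24 or more. Slc17a6, which encodes a vesicular glutamate transporter, and Nr2f2, which encodes a nuclear receptor, had distances of 0.90 and 0.86 and are not members. Cbln2, Cdh7 and Calb2 followed among the other genes with a level over 6.6, with 0.79, 0.77 and 0.57. At the edge of the condition, Glrb, Cycs and Strbp passed with a distance of 0.01, and Ndrg2, Skp1 and Sdcbp failed with 0.00.

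To ask whether OXT changed these genes in VPA rats, the VPA groups were compared with limma over all probe sets. Of the 10 genes, 0 passed at an adjusted p under 0.05 and 0 at an unadjusted p under 0.05, where 0.00% and 4.66% of all probe sets did (0 and 1419). Of all probe sets, 1.86% were higher and 2.81% lower with OXT at the unadjusted threshold. The arrays of the VPA groups overlapped for all 10 genes, while they did not overlap for 6.33% of all probe sets. Means were higher with OXT for 5 genes and lower for 5. The largest difference was that of Lypd1, at -0.22 (SE 0.16, 95% interval -0.58 to 0.13, unadjusted p = 0.188, adjusted p = 1 from limma). Slc35g2 differed by -0.12 (SE 0.11, 95% interval -0.38 to 0.13), Adgra1 by 0.07 (SE 0.09, 95% interval -0.13 to 0.26) and Ankrd34b by -0.01 (SE 0.08, 95% interval -0.20 to 0.17). Tmem255a differed by -0.01 (95% interval -0.25 to 0.22), Rab9b by 0.01 (-0.19 to 0.22), Tmem91 by 0.06 (-0.26 to 0.38) and Galnt13 by 0.00 (-0.36 to 0.36). The median size of the difference was 0.04 for the 10 genes and 0.09 for all probe sets.

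How small a change could be seen differed between the genes. The 95% interval lay within 1.5-fold in both directions for 8 of the 10 genes, and the exceptions were Vwc2l (0.05, interval -0.64 to 0.74) and Gpr165 (interval -0.98 to 0.92), where a change of that size was not detectable with 3 rats per group. Gpr165 differed by -0.03 (SE 0.42), and by 0.51 without OXT-treated replicate 3 (unadjusted p = 0.0714). Slc35g2 differed by -0.23 without OXT-treated replicate 2 (unadjusted p = 0.0528) and by -0.02 without OXT-treated replicate 3, and Adgra1 by 0.01 without OXT-treated replicate 3. Without vehicle-treated replicate 1, Lypd1 differed by -0.41 with an unadjusted p of 0.00579 and an adjusted p of 0.899. A gene that OXT had returned to the control level could not have been picked, so the choice itself limits how far the VPA groups could differ, and the 10 genes say nothing about OXT in other genes.

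**Figure D2:**
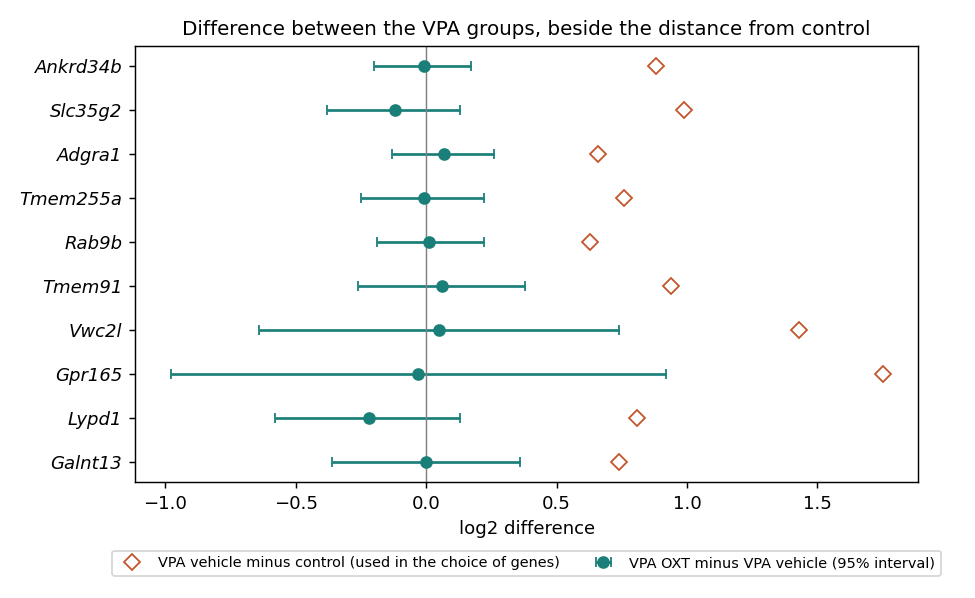
Log2 difference (x axis) of OXT-treated minus vehicle-treated VPA rats with its 95% interval from limma (filled circles), beside vehicle-treated VPA rats minus control (open diamonds, used in the choice), for the 10 genes (y axis). All 10 intervals hold 0, and those of Vwc2l and Gpr165 are the widest.

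Relatives and partners of the members, listed by family with earlier results of these data known, mostly did not pass the test. Against control, though, a larger share of these genes passed than of all probe sets in both VPA groups. All probe sets include 11343 with no symbol, and a share over named genes alone was not computed. Of 80 listed relatives and partners 72 were measured, 38 of them with a level over 6.6 in at least 1 group. At an unadjusted p under 0.05, OXT-treated VPA rats had 6 of these genes higher than control, 9 lower and 57 short of the threshold (7.38% of all probe sets passed, 3.87% higher and 3.51% lower), with a median of 0.03. Vehicle-treated VPA rats had 2 higher, 10 lower and 60 short of it (8.98% of all probe sets passed, 5.0% higher and 3.98% lower), with a median of -0.07 beside 0.01 over all probe sets. Between the VPA groups 0 passed at an unadjusted p under 0.05. After adjustment by limma's Benjamini-Hochberg step, 0 family genes and 0 of all probe sets passed in each comparison. Without control replicate 3, the genes higher than control numbered 1 in OXT-treated and 1 in vehicle-treated VPA rats, and without OXT-treated replicate 1 the genes lower with OXT numbered 4. Both comparisons with control use the same control arrays. For each family gene below, the log2 difference from control with OXT comes before that with vehicle. Rab9a differed by 0.02 with OXT and -0.01 with vehicle (SE 0.09 each), Ankrd34a by -0.02 and -0.10 (SE 0.09 each), and Ankrd34c by 0.16 and 0.12 (SE 0.11 each). Tmem255b stood at -0.22 and -0.19 (SE 0.13 each), Slc35g1 at 0.05 and -0.08 (SE 0.16 each) and Slc35g3 at -0.35 and -0.10 (SE 0.15 each), and Vwc2 at 0.21 and 0.19 (SE 0.12 each). Adgra2 and Adgra3 were not analysed here. The difference between a member and its relative was not tested.

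Larger families held genes that passed in both directions. Of 17 measured genes of the Galnt family, 2 were higher and 3 lower with OXT, and 2 higher and 4 lower with vehicle, at an unadjusted p under 0.05. Galnt14 was at 7.60, 7.36 and 7.36 in the OXT-treated VPA rats and 7.36, 7.58 and 7.36 in the vehicle-treated VPA rats, against 7.29, 7.08 and 7.10 in control. Its VPA arrays were all above control, by 0.07, as were those of Gpr153, by 0.02 and at mean levels below 6.6. These are 2 of the 72 measured family genes, where 2.80% of all genes met that condition. The difference of Galnt14 was 0.28 in both (SE 0.11, adjusted p = 0.587 with OXT and 0.502 with vehicle, limma), and that of Galntl6 was 0.26 in both (SE 0.11, adjusted p = 0.661 and 0.542). Galnt18 differed by -0.42 with OXT and -0.49 with vehicle (SE 0.14, adjusted p = 0.517 and 0.344), and Galnt17 by -0.34 and -0.32 (SE 0.10, adjusted p = 0.437 and 0.387). Galnt6, with -0.68 and -0.82, and Galnt5, with -0.18 and -0.26, complete those that passed with vehicle.

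Among 22 measured orphan receptors of class A, the class of Gpr165, 2 were higher and 3 lower with OXT, and 0 higher and 2 lower with vehicle. Gpr12, a receptor that raises cyclic AMP without a ligand, differed by -0.42 with OXT and -0.47 with vehicle (SE 0.13, adjusted p = 0.437 and 0.315, limma). Gpr83 stood at -0.33 and -0.22 and Gpr63 at -0.32 and -0.17, the last passing with OXT only. Gpr153 was at 0.64 and 0.45 and Gpr139 at 0.75 and 0.17, and both passed with OXT only. Gpr151, which is also on the list of habenula markers below, had the highest difference of these, 1.23 with OXT (SE 0.61), and did not pass. Of 7 Ly6 proteins, which include regulators of nicotinic receptors as Lypd1 is, Ly6e was lower with both (-0.30 and -0.37, SE 0.11) and Lypd6b passed as higher with OXT (0.35, SE 0.13). Lynx1 stood at 0.08 and 0.01 (SE 0.10).

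Among 7 genes of the chordin family, which bind bone morphogenetic proteins outside the cell, Chrdl1 was lower with both treatments of the VPA rats (-0.30 with OXT and -0.40 with vehicle, SE 0.11) and Crim1 passed as lower with vehicle (-0.12 and -0.30). For 6 relatives of Tmem91, Prrt1 passed as lower with vehicle (-0.23 and -0.27) and Prrt2 with OXT (-0.21 and -0.21), while Syndig1 stood at -0.21 and -0.21 (SE 0.09). Of 8 genes of Rab9 and late endosomes, Rab38 passed as higher with OXT (0.41, and 0.35 with vehicle). For genes that passed in 1 VPA group and not in the other, the comparison of the VPA groups is the test of the difference, and 0 of them passed it.

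**Figure D3:**
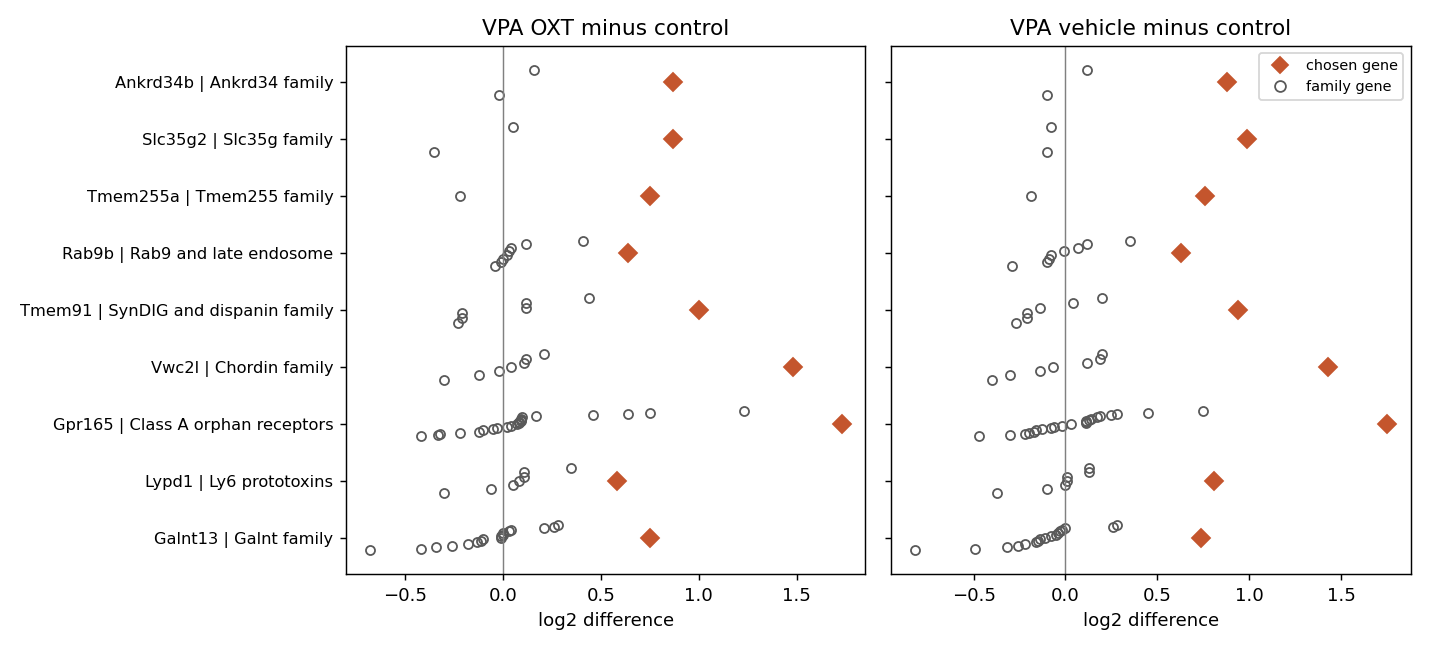
Log2 difference from control (x axes) in OXT-treated VPA rats (left) and vehicle-treated VPA rats (right) for 9 chosen genes (filled diamonds) and the measured genes of each one's family (open circles), by family (y axis). Rab9a, the Ankrd34 genes, the Slc35g genes and Tmem255b lie between -0.35 and 0.16, below the chosen gene of their row.

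The genes with the most similar pattern were found by the distance between profiles. For each gene with a symbol of its own the log2 difference from the control mean was taken on each of the 9 arrays, and its root mean square distance from the median profile of the 10 members was computed. Members themselves were at 0.08 (Tmem255a) to 0.88 (Gpr165). The 5 other genes nearest were Cntn6 at 0.12, Nrsn2, Slc8a3 and Npsr1 at 0.14 each and Grin3a at 0.15. Cntn6, a contactin gene, had levels of 6.59, 6.71 and 6.27 in the OXT-treated VPA rats and 6.31, 6.65 and 6.72 in the vehicle-treated VPA rats, against 5.60, 5.71 and 5.70 in control. Because the pattern is that of the choice, these genes too were above control on every VPA array, and no test is given.

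Of the 10 members 3 lie on the X chromosome in the GRCr8 annotation, namely Tmem255a, Rab9b and Gpr165. The X chromosome holds 3.91% of the genes with a known chromosome on the array, and 29 genes or 5.74% of the 505 genes with a known chromosome that met the condition.

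Markers of neighboring tissue and other cells moved with the VPA groups on several of the same arrays. The mean log2 level of 7 markers of the ventral hippocampus was between 7.23 and 7.30 in the OXT-treated VPA rats and 7.05 to 7.31 in vehicle-treated VPA rats, against 6.52 to 6.71 in control. These ranges do not overlap with control, in the same way as the members, and 4 of the 7 markers were higher at an unadjusted p under 0.05 in each VPA group (Nr2f2, Htr2c, Galr1 and Trhr). Among 6 dorsal hippocampus markers 1 was higher (Ndst4) and 1 lower (Prss23) in each. The mean of 6 oligodendrocyte markers was between 9.62 and 10.32 in the OXT-treated and 9.45 to 10.36 in the vehicle-treated VPA rats, against 10.42 to 10.91 in control, with 1 of 6 (Opalin) passing as lower in each. Their part in the values of the 10 genes was not tested.

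Thalamus markers were high on 4 of the 6 VPA arrays. The mean of 12 thalamus markers was 8.32, 8.12 and 6.82 in the OXT-treated VPA rats and 8.14, 7.66 and 6.69 in the vehicle-treated VPA rats, against 6.61 to 6.94 in control, and 5 of the 12 were higher at an unadjusted p under 0.05 with OXT and 4 with vehicle. Replicate 3 of both VPA groups was thus within the range of control, and on these arrays the median member was 0.68 and 0.85 above the control mean, while Gpr165 and Tmem91 were at their lowest in each VPA group and Vwc2l at its highest. Gpr165 was higher on the other 4 VPA arrays, where the thalamus mean was high, than on replicate 3. On replicate 3 it was 6.62 with OXT and 7.17 with vehicle, still above all controls. Of the thalamus markers Slc17a6 and Ntng1 were above control on all 6 VPA arrays, replicate 3 included, by at least 0.90 and 0.23. The mean of 15 choroid plexus markers was 8.34, 7.29 and 5.67 in the OXT-treated VPA rats and 5.32 to 5.96 in vehicle-treated VPA rats, against 7.17 to 7.95 in control. Of these markers, 0 were lower at that threshold with OXT and 14 with vehicle (3.51% and 3.98% of all probe sets). Between the VPA groups, 13 of the 15 were higher with OXT and 0 lower at an unadjusted p under 0.05, where 1.86% of all probe sets were higher. After adjustment 0 of all probe sets passed. On OXT-treated replicate 1 the choroid plexus mean was above the control range, and on replicate 2 it was within that range. The median member was 0.79 and 0.88 above the control mean on these arrays. Habenula markers, of which 7 were measured, had 1 higher in each VPA group, Tac1, by 0.97 with OXT and 0.96 with vehicle and with no overlap with control. Their mean was 5.88 to 7.54 with OXT and 6.17 to 6.38 with vehicle, against 5.70 to 6.13 in control. Of 8 GABAergic interneuron markers 2 were higher in each VPA group with no overlap with control, Gad1 (0.41 with OXT and 0.46 with vehicle) and Reln (0.39 and 0.29). Over all genes 2.80% had all VPA arrays above control. Sst was lower than control with OXT (-0.47, and -0.12 with vehicle), and lower with OXT than with vehicle (-0.36, unadjusted p = 0.0164 from limma). Of 6 microglia markers 0 passed in either group. Meninges markers, of which 9 were measured, had 5 higher with OXT and 1 with vehicle. Between the VPA groups 4 of the 9 were higher with OXT and 0 lower at an unadjusted p under 0.05. Hemoglobin genes, of which 2 were measured, averaged 7.86 to 8.47 in the OXT-treated and 8.08 to 8.70 in the vehicle-treated VPA rats, against 6.97 to 7.92 in control. Hba-a1 passed as higher than control with OXT (0.98) and with vehicle (0.92), and Hbb-b1 with vehicle only (0.88, and 0.45 with OXT). The part of the thalamus, choroid plexus, habenula, interneuron, meninges and hemoglobin markers in the members' values was not tested.

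**Figure D4:**
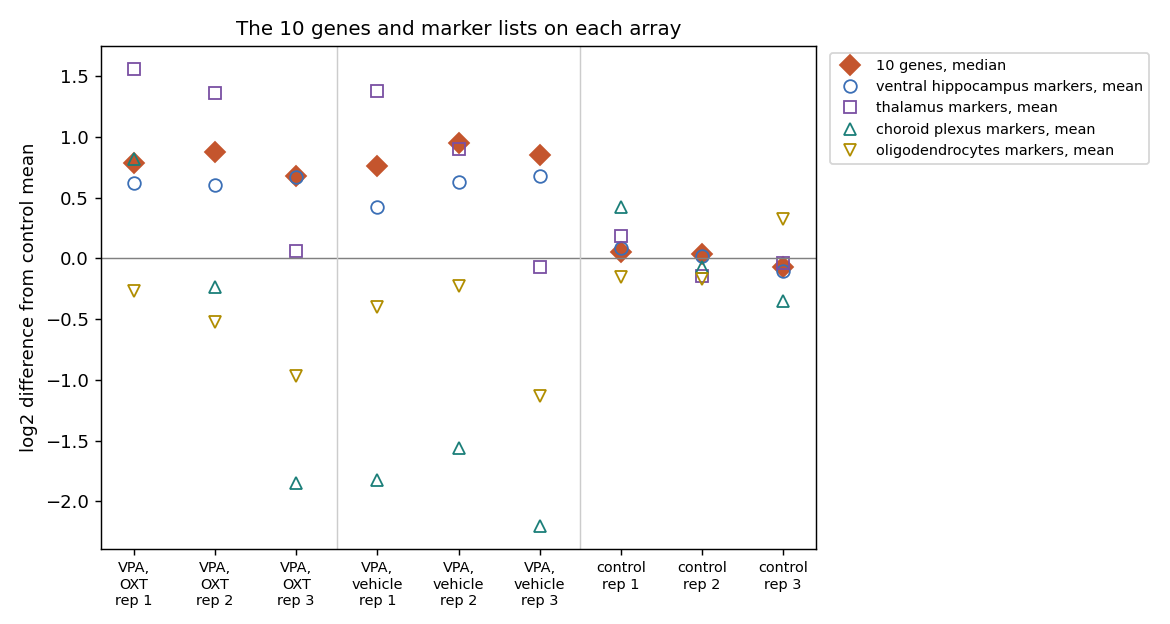
Log2 difference from the control mean (y axis) on each of the 9 arrays (x axis) for the median of the 10 genes (filled diamonds) and for the mean of 4 marker lists (open symbols). The median of the genes is between 0.68 and 0.95 on the 6 VPA arrays, the ventral hippocampus markers are above control on all 6, and the thalamus markers lie in the control range on replicate 3 of both VPA groups.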

How the data were processed

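RNA of the dorsal hippocampus of 9 rats was hybridised to Affymetrix Rat Gene 2.0 ST arrays, 1 per rat. The deposited values were log2 levels that the authors had normalized. The methods name Transcriptome Analysis Console and the submitters' notes name Affymetrix Expression Console, while the summarization method and genome build are not given in the sources used here. Array medians lay between 5.75 and 5.82, and 18511 of 30429 probe sets carried 1 symbol.

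With limma 3.58.1 in R 4.3.3, 1 mean per group was fitted for each probe set, and p values were adjusted by Benjamini-Hochberg over all probe sets. The procedure was tested on simulated data. A gene with several probe sets was represented by that with the highest mean. The members and lists were chosen with earlier results of these data known. Named genes are the members, family genes with an unadjusted p under 0.05 or the closest symbol, and 5 others each by distance from control and by profile. Genes nearest the condition's edge, single markers and Gpr151 were named after their values were seen. Alternatives were quantile normalization, median centring, trend and robust or no moderation, a filter on level, array weights, only the 2 groups compared, the mean of all probe sets, the replicate number as a block, and leaving out each array. P values treat pups as independent, and the number of arrays limits the precision.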

Additional observations from a re-analysis of the deposited data

How the results depend on the processing

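Over 18 alternatives, 0 of the 10 members passed at an adjusted p under 0.05 between the VPA groups, where the smallest adjusted p was 0.899. All 10 stayed without overlap between VPA and control arrays under both normalizations. Leaving out an array can only keep or widen the distance between VPA and control arrays, so those cases could not have come out otherwise. The members were picked for this lack of overlap, which is therefore a description. The median differences from control moved by less than the spread between rats. The differences between the VPA groups kept their sign in 156 of 180 cases. They changed sign with median centring (Rab9b 0.0, Galnt13 -0.01), quantile normalization (Rab9b -0.01, Galnt13 -0.01) and array weights (Gpr165 0.07), and in 19 cases when an array was left out. Some counted changes were differences that rounded to 0.0, such as Rab9b with median centring and Tmem91 without OXT-treated replicate 1, and these are no real reversal.

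When 1 array was left out, members at an unadjusted p under 0.05 numbered 0 to 1 and the differences ranged from -0.06 to 0.03 for Ankrd34b, -0.23 to -0.02 for Slc35g2, 0.01 to 0.10 for Adgra1, -0.09 to 0.04 for Tmem255a, -0.05 to 0.06 for Rab9b, -0.04 to 0.19 for Tmem91, -0.22 to 0.38 for Vwc2l, -0.30 to 0.51 for Gpr165, -0.16 to 0.13 for Galnt13 and -0.41 to -0.08 for Lypd1. Family genes higher in OXT-treated VPA rats than in control (main value 6) numbered 2 without moderation and 2 with only levels over 6.6, where 38 family genes were tested. Those higher in vehicle-treated VPA rats (main value 2) numbered 1 with median centring and 1 without moderation. Leaving out control replicate 2 or 3 or OXT-treated replicate 1 gave 2, 1 and 3 higher with OXT, and leaving out control replicate 1 or 2 or OXT-treated replicate 1 gave 5, 5 and 4 lower. Those higher with vehicle numbered 1 without control replicate 2, control replicate 3 or vehicle-treated replicate 2. Over all arrays left out there were 1 to 7 higher and 4 to 12 lower in OXT-treated VPA rats, and 1 to 3 higher and 7 to 11 lower in vehicle-treated VPA rats.

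The replicate number as a block gave 0 members between the VPA groups and raised the family genes higher in vehicle-treated VPA rats to 4. Same-numbered arrays correlated between -0.177 and 0.296 in their deviations from the group means, with the highest value for replicate 1 of the VPA groups. These correlations cannot show whether rats of the same number shared a litter or batch, which the labels do not give.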
